A study of Mus musculus with 12 samples.

Results

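A set of 9 genes of the pluripotency machinery was followed through RNA-seq of CGR8 cells, a line of mouse embryonic stem cells. They are the transcription factors Pou5f1, Sox2, Sall4 and Utf1, the RNA-binding proteins Lin28a and L1td1, the chromatin proteins Dppa2 and Dppa4, and the corepressor Trim28. The 9 genes were chosen by name, and their symbols were matched in the authors' deposited table to Ensembl identifiers. All 9 were found among the 52661 genes of the count table, and all 9 were among the 21053 genes that passed the filter on low counts. The cells grew in serum with LIF (leukemia inhibitory factor, a cytokine that keeps these cells undifferentiated) and had been stably transfected with a ppy-cagg-ires-puro vector, in which the CAG promoter drives expression and puromycin resistance allows selection. The vector was empty in control (n = 3) and encoded netrin-1, a secreted guidance protein, in the other groups: netrin-1 WT (n = 3), netrin-1 unc5B MUT (n = 3) and netrin-1 neo1 MUT (n = 3), point mutants affecting the interaction with the receptors Unc5b and neogenin. The transgene and the selection marker were thus set against the vector with its marker alone. The labels do not say whether a group is a clone or a pool, nor whether its 3 libraries came from separate cultures, so p-values cover only the spread among these libraries, and that spread may be technical. The design asks how transcripts differ with netrin-1 and with netrin-1 altered toward a single receptor.

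Mouse embryonic stem cells keep the option to form every embryonic lineage through a small set of transcription factors that occupy each other's enhancers. Pou5f1 (also called Oct4) and Sox2 bind DNA side by side as partners, and Sall4 binds many of the same regions. Utf1 is a chromatin-associated target of that pair. Lin28a blocks the maturation of let-7 microRNAs. L1td1 is an RNA-binding protein that descends from a LINE-1 retrotransposon. Dppa2 and Dppa4 bind chromatin as a heterodimer, protect developmental promoters from DNA methylation and act upstream of the Zscan4 genes of the 2-cell-like state. Trim28 (also called KAP1) is the scaffold through which zinc-finger proteins recruit the methyltransferase Setdb1 to silence retroviral elements.

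Processed copies of Dppa2 and Dppa4 lie elsewhere in the genome and bear on their counts, so a stretch of each gene is shown beside its closest copy. Sequences are from GENCODE M21 transcripts (GRCm38), 150 bases inside the coding part, 5′ to 3′, with the bases that differ between gene and copy in capitals. The Dppa2 pair differs at 4 of the 150 bases and the Dppa4 pair at 2. Each stretch was picked as the one with the most differing bases. Over their whole matches the pairs are 99.3% and 99.4% identical.
Dppa2: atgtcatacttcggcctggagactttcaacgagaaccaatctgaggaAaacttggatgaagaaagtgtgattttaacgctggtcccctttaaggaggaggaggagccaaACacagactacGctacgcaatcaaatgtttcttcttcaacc
Gm9788: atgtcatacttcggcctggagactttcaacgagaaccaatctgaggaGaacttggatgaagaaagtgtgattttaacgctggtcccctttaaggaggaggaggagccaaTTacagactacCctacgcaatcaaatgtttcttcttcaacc
Dppa4: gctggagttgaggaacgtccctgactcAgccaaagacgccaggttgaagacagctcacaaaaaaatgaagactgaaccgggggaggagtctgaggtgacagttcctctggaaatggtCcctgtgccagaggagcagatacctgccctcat
Gm14058: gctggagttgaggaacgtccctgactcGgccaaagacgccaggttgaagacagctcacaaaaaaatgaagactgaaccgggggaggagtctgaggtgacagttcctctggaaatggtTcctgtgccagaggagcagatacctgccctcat

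The promoters of Pou5f1 and Sox2 are shown because, of these partner genes, Sox2 was called between groups by the paired fit described below and Pou5f1 was not. They are upstream stretches from RefSeq (GRCm38.p6), plus strand, ending before both the RefSeq and the GENCODE start of the gene. The Pou5f1 stretch is chr17:35505782-35506017 (236 bases, 61.9% G or C) and the Sox2 stretch is chr3:34649745-34649994 (250 bases, 72.0% G or C). Capitals mark matches to 2 of 4 motifs searched on both strands, the GC box GGGCGG and the nuclear receptor site AGGTCA.
Pou5f1: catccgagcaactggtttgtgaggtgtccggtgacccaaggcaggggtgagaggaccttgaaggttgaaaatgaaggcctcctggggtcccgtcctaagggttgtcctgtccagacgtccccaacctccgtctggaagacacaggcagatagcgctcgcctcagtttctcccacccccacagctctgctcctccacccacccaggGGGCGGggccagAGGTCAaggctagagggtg
Sox2: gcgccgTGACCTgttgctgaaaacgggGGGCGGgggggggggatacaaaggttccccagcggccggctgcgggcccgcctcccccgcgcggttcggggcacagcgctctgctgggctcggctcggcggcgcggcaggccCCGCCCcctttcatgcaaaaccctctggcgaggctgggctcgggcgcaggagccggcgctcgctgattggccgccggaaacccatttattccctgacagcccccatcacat
The Pou5f1 stretch held 1 GC box and 1 nuclear receptor site, and the Sox2 stretch held 2 GC boxes and 1 nuclear receptor site. Neither the octamer ATGCAAAT, the letters that POU factors bind, nor the Sox core ATTGTT occurred in either stretch. Of 32851 RefSeq promoter windows of 300 bases, 35.7% held GGGCGG, 16.3% AGGTCA, 10.7% ATTGTT and 1.7% ATGCAAAT. RefSeq windows matched 6 of the 9 genes, and Sall4, Dppa2 and Dppa4 were the other three. A match is a run of letters, with no reading of binding attached.

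Libraries held 22256195 to 59735737 estimated counts, and the 4 libraries numbered 3 held the fewest, at most 24736421. The first principal component of log2 CPM (read counts scaled to a common library total, with TMM scaling) carried 70.2% of the variance and separated number 3 from numbers 1 and 2. No label explains what the numbers mark. Values below are therefore listed for libraries 1, 2 and 3 in that order. Fold changes are log2 ± SE from the edgeR quasi-likelihood fit that takes the replicate number as a block (the paired fit), with Benjamini-Hochberg adjustment over all 21053 genes, and "rose" and "fell" are kept for genes that passed its adjusted threshold of 0.05. Ntn1 stood at 0.782 to 15.4 CPM in control, against 76.9 to 287.6 CPM with the wild-type protein, 34.9 to 321.7 CPM with unc5B MUT and 56.4 to 219.2 CPM with neo1 MUT, higher than control within every number. Markers of other cell types were measured beside the members: summed fibroblast markers reached at most 27.0 CPM and mesendoderm markers at most 18.9 CPM, while the 9 neuroectoderm markers summed to 49.2 to 180.4 CPM and the 10 trophectoderm markers to 50.2 to 116.8 CPM. Single markers on these lists were called by the paired fit. In neo1 MUT against control the eye and neural factor Pax6 rose from 5.31 to 15.5 CPM (adjusted p = 0.0433), the epithelial keratin Krt8 fell from 49.1 CPM with a log2 fold change of -1.72 (adjusted p = 0.0322) and the surface protein Thy1 fell from 7.65 to 3.02 CPM (adjusted p = 0.0253), and in netrin-1 WT the trophoblast factor Tfap2c rose from 12.1 to 24.8 CPM (adjusted p = 0.0384). The edgeR fit without the block called none of the 4 (adjusted p = 0.382, 0.271, 0.452 and 1). For Tfap2c the netrin-1 WT and control libraries overlapped (SD 22.1 and 9.66 CPM). It was the 1 called of 9 tested trophectoderm genes there, whose median log2 fold change was -0.16. In neo1 MUT against control, 1 of 5 tested neuroectoderm, 2 of 9 trophectoderm and 1 of 4 fibroblast genes were called. Over all genes, the paired fit called 3.5% and 5.26% in these comparisons. The part of the 4 named markers in the levels of the 9 genes was not tested. The 18 primitive endoderm markers summed to 2005.0 to 4756.2 CPM in control and 1352.0 to 3508.7 CPM in unc5B MUT, against 545.2 to 1332.4 CPM in netrin-1 WT and 567.0 to 941.4 CPM in neo1 MUT. In bulk RNA, fewer cells of a type and less RNA per cell cannot be told apart.

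All 9 genes ranked high among tested genes by mean CPM, from the 91.3 percentile for Dppa2 to the 99.9 percentile for Trim28. Per kilobase of exon, Pou5f1 had the highest mean level over the 12 libraries at 547.0 ± 79.9 CPM per kb (SD, n = 12), followed by Trim28 at 415.0 ± 286.6. Utf1 (210.6 ± 34.4), Sox2 (196.7 ± 70.4) and L1td1 (169.2 ± 68.7 CPM per kb) formed a middle tier whose neighbours lay within each other's SD. Dppa4 (86.1 ± 10.7), Dppa2 (50.8 ± 22.4), Lin28a (38.3 ± 9.41) and Sall4 (28.5 ± 10.9 CPM per kb) were lower. The ranges of Dppa2, Lin28a and Sall4 over the libraries overlapped, although the mean of Dppa2 lay above the highest Sall4 value (48.8). In number 3 their order differed, with means of 40.3 CPM per kb for Sall4, 31.1 for Dppa2 and 31.1 for Lin28a. Every library placed Pou5f1 (lowest 431.2 CPM per kb) above the highest value of Sox2 (359.3). The position of Trim28 was set by the number 3 libraries, with means of 225.2 CPM per kb in numbers 1 and 2 and 794.7 in number 3, where it stood above Pou5f1 (627.1).

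**Figure D1:**
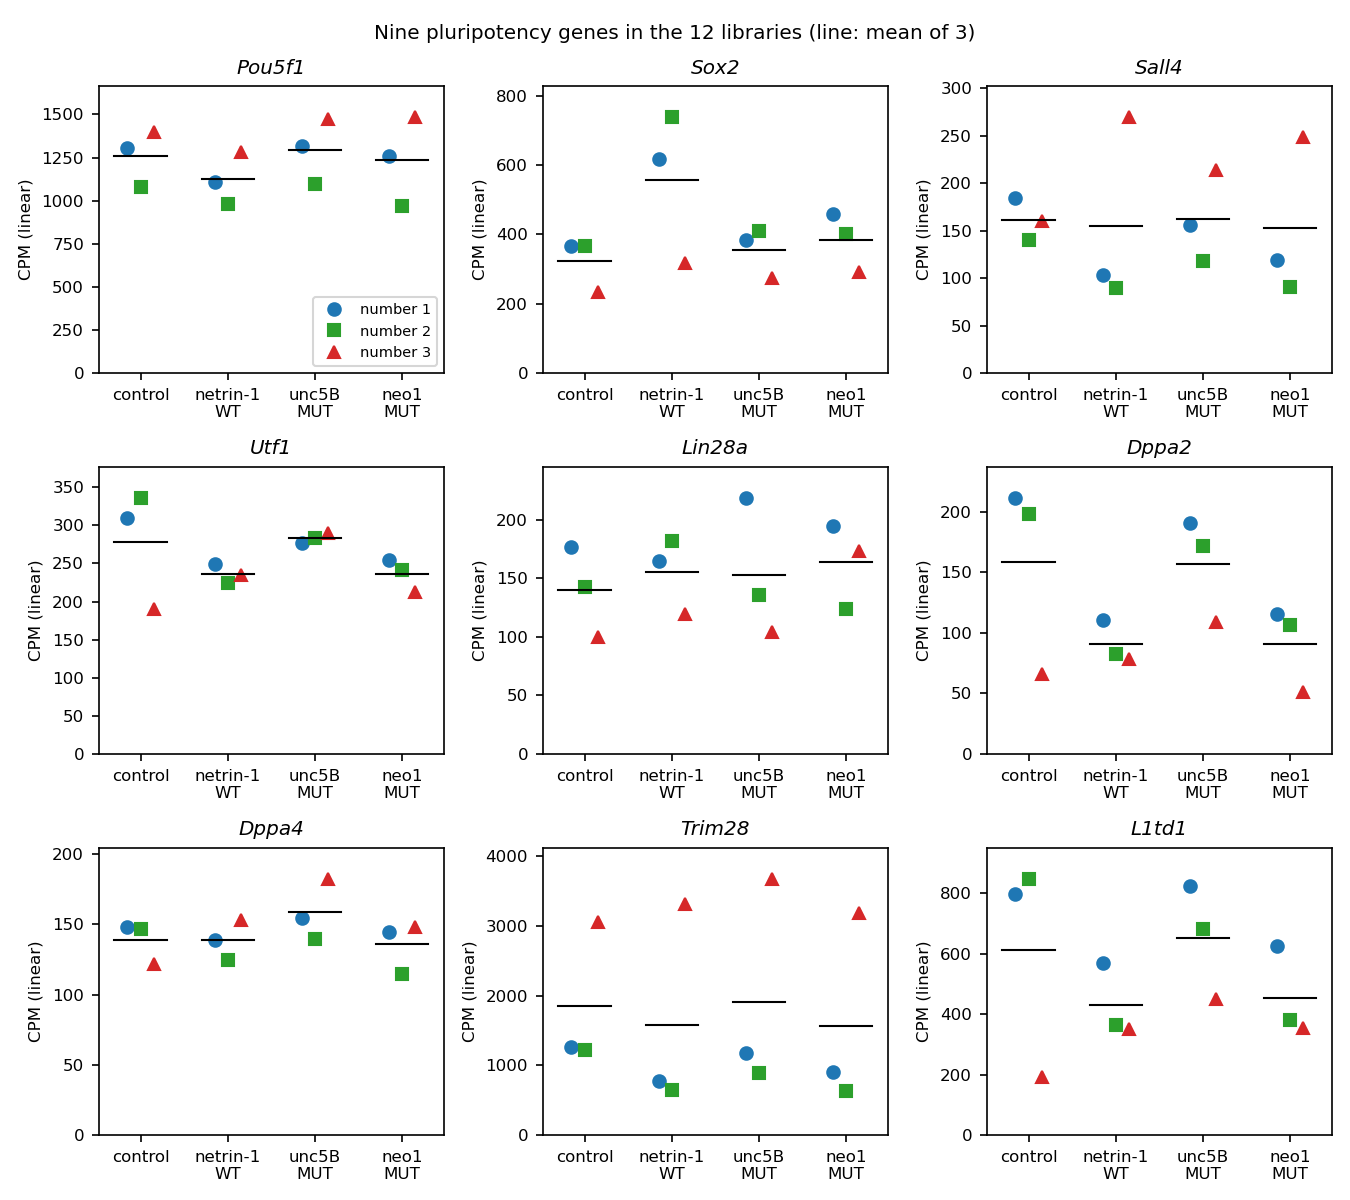
Each panel plots 1 gene's CPM (linear axis from 0) in the 12 libraries by group, with symbols for the replicate number and a line at the mean of 3. Sox2 libraries 1 and 2 of netrin-1 WT (617.0 and 739.1 CPM) stand above every other library, and Trim28 in the number 3 libraries (3051.4 to 3673.9 CPM) stands above all others.

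Between groups, few members passed a test. In netrin-1 WT against control the paired fit called 3.5% of all genes and 1 of the 9 members, Sox2, which rose. No member passed in the other 5 comparisons, where it called 0.0285% of genes (unc5B MUT against control), 5.26% (neo1 MUT against control), 1.97% (unc5B MUT against netrin-1 WT), 1.99% (neo1 MUT against netrin-1 WT) and 4.87% (neo1 MUT against unc5B MUT). The fit without the block called no member in any of the 6 comparisons, against 0.0997%, 0%, 0.128%, 0%, 0.076% and 0.133% of all genes, where netrin-1 WT against control comes first, then unc5B MUT and neo1 MUT against control, unc5B MUT and neo1 MUT against netrin-1 WT, and neo1 MUT against unc5B MUT. At an unadjusted p under 0.05 it held 1219, 238, 1529, 1059, 1015 and 1443 genes in the same order. The median paired log2 fold change of the 9 members was -0.22 in netrin-1 WT against control (0.01 over all genes), 0.08 in unc5B MUT against control (0.02) and -0.22 in neo1 MUT against control (0.02). Against netrin-1 WT it was 0.20 for unc5B MUT (0.01) and 0.01 for neo1 MUT (0.01), and neo1 MUT against unc5B MUT gave -0.23 (0.00). Comparisons with a common group share its 3 libraries.

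**Figure D2:**
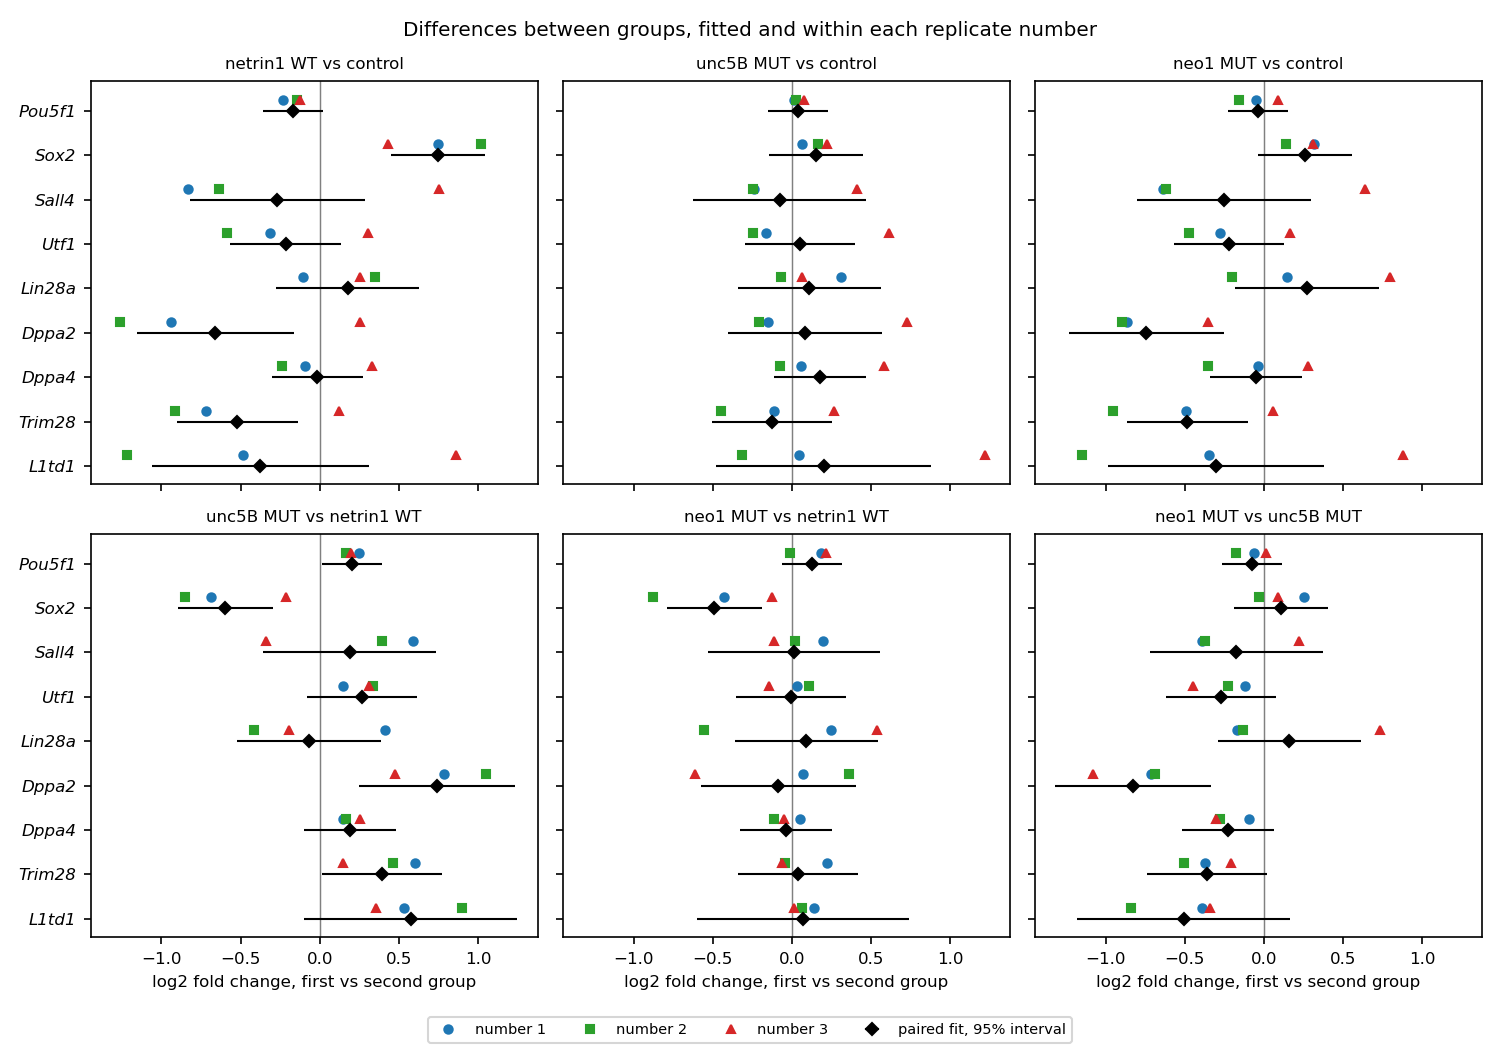
Each panel is 1 comparison: black diamonds are paired log2 fold changes with 95% intervals, and coloured symbols the differences within replicate numbers 1, 2 and 3. Red triangles (number 3) often lie opposite to numbers 1 and 2 in the comparisons with control, as for Dppa2 in netrin-1 WT (-0.94, -1.26 and 0.25).

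Pou5f1, the POU factor without which the inner cell mass is not kept, had the smallest ratio of highest to lowest library among the 9 genes. Its libraries read 1303.3, 1080.8 and 1398.2 CPM in control, 1108.6, 979.5 and 1281.4 in the netrin-1 WT libraries, 1317.3, 1098.2 and 1472.3 for unc5B MUT and 1260.2, 969.3 and 1486.8 for neo1 MUT. The groups overlapped throughout, and the highest library exceeded the lowest 1.53-fold, next to 1.59-fold for Dppa4. Pou5f1 was lower in netrin-1 WT than in control in all 3 numbers, with a log2 difference of -0.17 ± 0.09 (95% interval -0.36 to 0.02, adjusted p = 0.339). The same interval was -0.15 to 0.23 for unc5B MUT and -0.23 to 0.15 for neo1 MUT. After subtracting each number's mean, the genes whose log2 CPM followed Pou5f1 most closely over the 12 libraries, among 8883 genes with at least 10 CPM, were the ribosomal protein genes Rpl21 (r = 0.947) and Fau (r = 0.936) and the vesicle transport gene Vps41 (r = 0.92).

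Sox2, the HMG-box partner of Pou5f1, was the member that the paired fit called. Its control libraries read 367.2, 365.0 and 234.1 CPM, and with wild-type netrin-1 they read 617.0, 739.1 and 316.2. The unc5B MUT libraries held 383.8, 410.2 and 272.9 CPM, and the neo1 MUT libraries 457.5, 401.6 and 290.0. Within each number netrin-1 WT was highest, while across numbers the groups overlapped because number 3 was low everywhere. Sox2 rose 1.68-fold in netrin-1 WT against control (0.75 ± 0.14, adjusted p = 0.0144), with differences of 0.75, 1.02 and 0.43 in numbers 1, 2 and 3. In the planned main fit, without the block, the estimate was 0.79 ± 0.34 (adjusted p = 0.81). The paired call was lost without control library 1 or 2 (adjusted p = 0.0747 and 0.0835) or netrin-1 WT library 1 or 2 (0.0712 and 0.0786), with log2 fold changes between 0.58 and 0.75. The authors' deposited table gives 0.76 with an adjusted p of 0.00405.

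Both mutants lay between control and netrin-1 WT for Sox2. Against netrin-1 WT, Sox2 was lower, with a log2 difference of -0.60 ± 0.14 in unc5B MUT (adjusted p = 0.0537) and -0.49 ± 0.14 in neo1 MUT (adjusted p = 0.116), in all 3 numbers each time. Neither passed, and the authors' deposited table gives adjusted p-values of 0.0183 and 0.0503 for the same pairs. Against control the mutants differed by 0.15 ± 0.14 (unc5B MUT, 95% interval -0.15 to 0.45) and 0.26 ± 0.14 (neo1 MUT, -0.04 to 0.56).

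Sox2 (chromosome 3, 34650405 to 34652461, plus strand, GRCm38) lies in a stretch of chromosome 3, from 5 to 55 Mb, in which many genes were higher in netrin-1 WT. That stretch was picked with its values known. Among its 95 other genes over 10 CPM, 66 rose and 0 fell in netrin-1 WT against control. Their median log2 fold change was 0.92, and 1, 0.96 and 0.79 within numbers 1, 2 and 3. Over all genes the paired fit called 3.5% in this comparison, with a median of 0.01. Of the 95, 68 had a larger fold change than Sox2, so the difference of Sox2 was smaller than that of most of its chromosomal surroundings. Against netrin-1 WT the median of the 95 was -0.68 in unc5B MUT (52 fell) and -0.81 in neo1 MUT (62 fell), beside the -0.60 and -0.49 of Sox2. Over all genes 1.97% and 1.99% were called there, each with a median of 0.01. Without the block, edgeR called 21 of all genes in netrin-1 WT against control. It called 0 in unc5B MUT and 16 in neo1 MUT against netrin-1 WT. The part of this stretch in the Sox2 result was not tested.

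**Figure D3:**
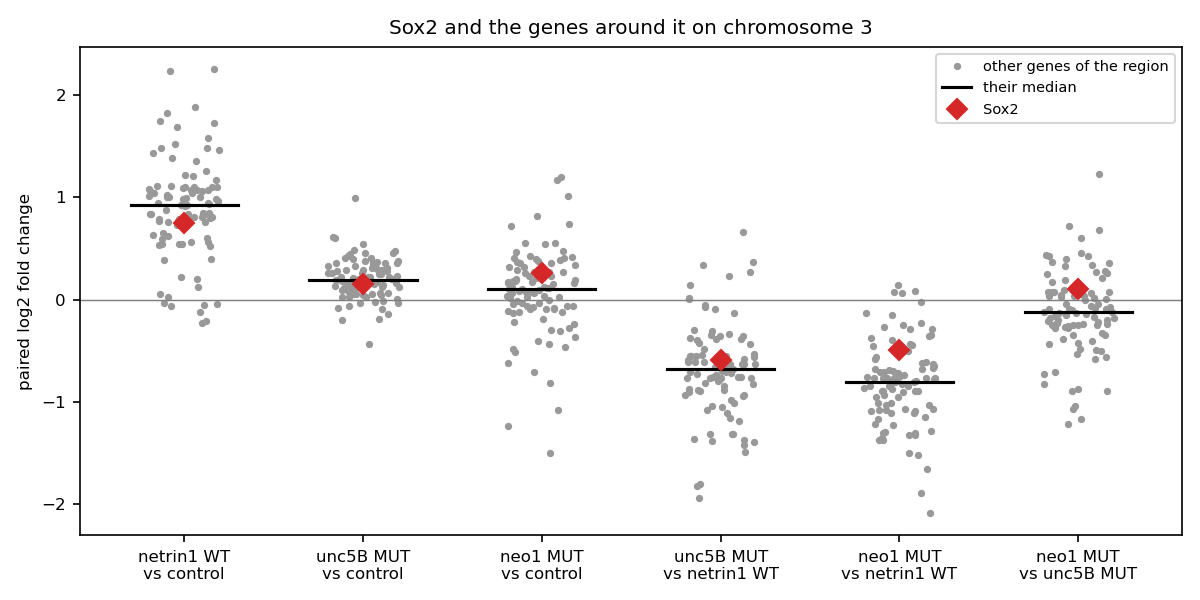
Grey dots are paired log2 fold changes (vertical axis) of the 95 other genes over 10 CPM in the chromosome 3 stretch, black lines their median and red diamonds Sox2, for the 6 comparisons. Sox2 sits below the median in netrin-1 WT against control (0.75 against 0.92) and above it in both mutants against netrin-1 WT.

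The nearest tested genes with at least 1 CPM gave a mixed picture. Before Sox2, the mitochondrial import gene Dnajc19 stood at 41.6 ± 2.47 CPM in control and 62.4 ± 7.39 in netrin-1 WT (SD, n = 3). Its paired log2 difference was 0.59 ± 0.17 (adjusted p = 0.0946). The predicted gene Gm43668 rose from 3.70 ± 1.01 to 8.96 ± 3.79 CPM (1.24 ± 0.21, adjusted p = 0.0109). Gm43668 lies inside Dnajc19 on the other strand, so both mark 1 locus. That locus ends at 34081321, and Sox2 starts at 34650405. After Sox2, Gm38509 rose from 4.04 ± 1.25 to 8.71 ± 4.26 CPM (1.06 ± 0.255, adjusted p = 0.0481). Gm3143 stood at 1.26 ± 0.301 and 1.02 ± 0.161 CPM and was not called (adjusted p = 0.683). Without the block, the adjusted p-values of Gm43668 and Gm38509 were 0.391 and 0.827. Sox2ot, a long noncoding transcript that overlaps Sox2, stood at 1.61 ± 0.584 and 1.99 ± 0.683 CPM. The labels do not state whether counting used strand, and reads from Sox2 and Sox2ot may not be separated. The same holds for reads from Dnajc19 and Gm43668. The genes most like Sox2 over the 12 libraries were the FGF antagonist Spry1, the peroxisomal oxidase Acox3 and the Golgi gene Cog6 (r = 0.959 each), and Spry1 and Cog6 are also on chromosome 3.

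Sall4, a zinc-finger factor that represses differentiation genes, differed between groups in opposite directions in different numbers. Its libraries read 184.7, 140.1 and 160.4 CPM in control, 103.7, 90.0 and 270.1 in the netrin-1 WT libraries, 156.2, 118.2 and 213.6 for unc5B MUT and 118.8, 91.2 and 249.2 for neo1 MUT. In numbers 1 and 2 all netrin-1 groups were below control, and in number 3 all were above it. The paired estimate for netrin-1 WT against control was -0.27 ± 0.25 (adjusted p = 0.63), made of -0.83, -0.64 and 0.75 within the 3 numbers.

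Utf1, a target of the Pou5f1 and Sox2 pair, read 309.2, 336.1 and 189.7 CPM in control, 248.8, 224.4 and 234.2 in the netrin-1 WT libraries, 276.1, 283.4 and 290.4 for unc5B MUT and 254.4, 241.8 and 212.3 for neo1 MUT. All 3 unc5B MUT libraries were above all 3 of netrin-1 WT and of neo1 MUT. The log2 differences were 0.27 ± 0.16 (unc5B MUT against netrin-1 WT, adjusted p = 0.407) and -0.27 ± 0.16 (neo1 MUT against unc5B MUT, adjusted p = 0.358). Neither was called. Over the 54 pairings of member and comparison these were the 2 whose libraries did not overlap, 1 of 9 members in each of those comparisons and 0 of 9 in the other four. Of all tested genes, the libraries did not overlap for 9.42% in unc5B MUT against netrin-1 WT and 11.8% in neo1 MUT against unc5B MUT. The share was 9.23% for netrin-1 WT, 4.38% for unc5B MUT and 11.4% for neo1 MUT against control, and 8.28% for neo1 MUT against netrin-1 WT. The members' counts are near or below these shares.

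Lin28a, the inhibitor of let-7 maturation, read 176.6, 142.8 and 100.1 CPM in control, 164.5, 181.8 and 119.5 in the netrin-1 WT libraries, 218.9, 136.1 and 104.6 for unc5B MUT and 194.9, 123.9 and 173.6 for neo1 MUT. The groups overlapped in all comparisons. The paired estimates against control were 0.18 ± 0.21 for netrin-1 WT, 0.11 ± 0.21 for unc5B MUT and 0.27 ± 0.21 for neo1 MUT, with adjusted p-values of 0.706, 1 and 0.51. Of the 12 other measured genes of the let-7 pathway, its processing enzymes and its known targets, 1 passed: the paralog Lin28b rose in neo1 MUT. Over all genes, the paired fit called 5.26%, 1.99% and 4.87% in neo1 MUT against control, netrin-1 WT and unc5B MUT. Lin28b stood at 26.9 CPM there, 12.1 in control, 11.1 in netrin-1 WT and 12.5 with unc5B MUT. The log2 fold changes of neo1 MUT were 1.14 ± 0.18 against control (adjusted p = 0.00789), 1.33 ± 0.18 against netrin-1 WT (adjusted p = 0.00498) and 1.15 ± 0.18 against unc5B MUT (adjusted p = 0.0086). Without the block, the adjusted p-values of Lin28b were 0.471, 0.658 and 0.558.

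Dppa2 differed between groups most clearly in numbers 1 and 2. Control libraries read 211.7, 198.4 and 65.7 CPM, unc5B MUT libraries 190.6, 171.6 and 108.7, netrin-1 WT libraries 110.5, 82.8 and 78.3 and neo1 MUT libraries 116.0, 106.3 and 51.3. In numbers 1 and 2, control and unc5B MUT were both above netrin-1 WT and neo1 MUT, and in number 3 the control library was lower than the netrin-1 WT library. The paired log2 fold changes were -0.66 ± 0.22 for netrin-1 WT against control (adjusted p = 0.145) and -0.75 ± 0.22 for neo1 MUT against control (adjusted p = 0.0843). They were 0.74 ± 0.22 for unc5B MUT against netrin-1 WT (adjusted p = 0.119) and -0.83 ± 0.22 for neo1 MUT against unc5B MUT (adjusted p = 0.0595). All but the first had 1 sign in all 3 numbers. None passed. For these pairs the authors' deposited table gives adjusted p-values of 0.0518, 0.0506, 0.0492 and 0.0366.

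Dppa4, its partner, had smaller differences between groups. Its libraries read 148.5, 147.1 and 121.8 CPM in control, 139.3, 124.5 and 153.1 in the netrin-1 WT libraries, 154.5, 139.5 and 182.6 for unc5B MUT and 144.4, 114.9 and 148.0 for neo1 MUT, with overlap in every comparison. The paired estimates against control were -0.01 ± 0.13 for netrin-1 WT, 0.18 ± 0.13 for unc5B MUT and -0.05 ± 0.13 for neo1 MUT. The estimate was 0.19 ± 0.13 for unc5B MUT against netrin-1 WT (adjusted p = 0.481) and -0.23 ± 0.13 for neo1 MUT against unc5B MUT (adjusted p = 0.355), each with 1 sign in all 3 numbers, the same sign as for Dppa2. None passed. The ratio of Dppa2 to Dppa4 in CPM was 1.43 and 1.35 in control libraries 1 and 2 and 1.23 in both such unc5B MUT libraries, but 0.793 and 0.665 in netrin-1 WT and 0.803 and 0.925 in neo1 MUT. In the number 3 libraries it was 0.539, 0.512, 0.595 and 0.347 for control, the wild-type protein, unc5B MUT and neo1 MUT. The ratio is of counts not scaled for length, so only its differences between libraries can be read, and only among numbers 1 and 2. In number 3 the processed copies took a larger share of the counts, as given below, and the ratio is uncertain.

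Genes of the 2-cell-like state, which Dppa2 and Dppa4 act upstream of, were measured beside them. Of 11 tested, 5 rose in netrin-1 WT and 5 in neo1 MUT against control, and 0 in unc5B MUT. Over all genes, the paired fit called 3.5%, 5.26% and 0.0285% in the same order. The edgeR fit without the block called 0 of the 11 in each of the 6 comparisons. Zscan4e, a telomere-associated gene of this state, stood at 1.23 ± 0.845 CPM in control and 6.85 ± 2.70 in netrin-1 WT (SD, n = 3). It stood at 7.90 ± 5.48 CPM in neo1 MUT and 1.54 ± 1.01 in unc5B MUT. The neo1 MUT libraries overlapped those of control and of unc5B MUT. The near-identical Zscan4 genes may share reads. The adjusted p of Zscan4e against control was 0.00266 in netrin-1 WT and 0.00312 in neo1 MUT in the paired edgeR fit. Without the block it was 0.594 and 0.421. The summed list read 14.7, 11.4 and 4.24 CPM in control, 57.3, 52.5 and 44.2 in the netrin-1 WT libraries, 14.9, 18.8 and 7.39 for unc5B MUT and 68.6, 67.5 and 7.34 for neo1 MUT. In numbers 1 and 2 both netrin-1 WT and neo1 MUT stood above the other groups. In number 3 only the netrin-1 WT library did, and its Dppa2 level (78.3 CPM) was above that of control (65.7), whereas in numbers 1 and 2 it was below. The number 3 libraries of unc5B MUT and neo1 MUT held 108.7 and 51.3 CPM of Dppa2, with list sums of 7.39 and 7.34 CPM. No relation between Dppa2 and this list was tested.

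Trim28, the KAP1 corepressor, read 1267.2, 1215.0 and 3051.4 CPM in control, 772.0, 646.0 and 3313.9 in the netrin-1 WT libraries, 1170.1, 890.2 and 3673.9 for unc5B MUT and 901.4, 627.6 and 3178.5 for neo1 MUT. Number 3 was far above the others in every group. Against control the paired estimates were -0.52 ± 0.17 for netrin-1 WT (adjusted p = 0.137), -0.13 ± 0.17 for unc5B MUT (adjusted p = 1) and -0.48 ± 0.17 for neo1 MUT (adjusted p = 0.142). Within numbers 1 and 2 the difference of netrin-1 WT from control was -0.72 and -0.91, and in number 3 it was 0.12. Of 13 genes that act with Trim28, among them Setdb1, the heterochromatin proteins and Dnmt1, 0 were called in any of the 6 comparisons. This held for the paired edgeR fit and for the fit without the block. The paired fit called 0.0285% to 5.26% of all genes in these comparisons.

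L1td1, which embryonic stem cells express at a high level, read 798.0, 848.6 and 193.4 CPM in control, 569.3, 365.9 and 351.8 in the netrin-1 WT libraries, 823.6, 682.1 and 450.4 for unc5B MUT and 626.2, 381.6 and 355.6 for neo1 MUT. The control group itself spanned from 193.4 to 848.6 CPM. The paired estimate for netrin-1 WT against control was -0.37 ± 0.31 (95% interval -1.06 to 0.31, adjusted p = 0.577), made of -0.49, -1.21 and 0.86 in numbers 1, 2 and 3. The interval was the widest among the members in that comparison, and a fall to 0.5 of the control level lies inside it.

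More members differed between numbers than between groups. Comparing number 3 with numbers 1 and 2 over all groups, the paired fit called 62.8% of all genes, and 7 of the 9 members: 3 rose and 4 fell. Trim28 rose 3.67-fold (1.88 ± 0.13, adjusted p = 3.08e-07), Sall4 rose by 0.89 ± 0.18 (adjusted p = 0.00152) and Pou5f1 by 0.31 ± 0.06 (adjusted p = 0.00132). Sox2 fell by 0.71 ± 0.11 (adjusted p = 0.00015), Dppa2 by 0.92 ± 0.18 (adjusted p = 0.000874), L1td1 by 0.86 ± 0.24 (adjusted p = 0.00919) and Lin28a by 0.44 ± 0.16 (adjusted p = 0.0312). Utf1 (-0.22 ± 0.12, adjusted p = 0.123) and Dppa4 (0.12 ± 0.10, adjusted p = 0.31) did not pass. Since most genes were called, 7 of 9 is near the background share. These p-values cover the spread among libraries within numbers, not the spread among numbers.

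The sign of a difference often turned with the number. Over the 54 pairings of member and comparison, 20 had 1 sign in all 3 numbers, and in 23 numbers 1 and 2 shared a sign that number 3 did not. These pairings reuse the same 12 libraries. The share of all genes with such a turn was not computed, so it cannot be called particular to the members. In netrin-1 WT against control 6 of the 9 members turned in this way (Sall4, Utf1, Dppa2, Dppa4, Trim28 and L1td1), and Pou5f1 and Sox2 kept 1 sign. A fit with a term for group by number gave the size of that turn but cannot test it. Each group has 1 number 3 library, so the spread in that fit came from numbers 1 and 2 alone. In netrin-1 WT against control, number 3 minus numbers 1 and 2 was 1.34 for Dppa2, 1.496 for Sall4 and 0.75 for Utf1. The value was 1.68 for L1td1, 0.93 for Trim28 and 0.49 for Dppa4. These are the members already seen to turn. Calls on this term, given next, therefore allow no conclusion about the turn in either direction. No member passed in any comparison. That term was called for 0.019% of genes in netrin-1 WT, 0.0095% in unc5B MUT and 0.00475% in neo1 MUT against control, for 0% in unc5B MUT and 0.0237% in neo1 MUT against netrin-1 WT, and for 0% in neo1 MUT against unc5B MUT.

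In libraries 1 and 2 alone, fitted without number 3, both Sox2 and Dppa2 passed in netrin-1 WT against control, where 4.22% of genes were called. Sox2 rose by 0.89 ± 0.13 (adjusted p = 0.00967) and Dppa2 fell by 1.09 ± 0.15 (adjusted p = 0.00894). Trim28 (-0.81 ± 0.19, adjusted p = 0.0535), Utf1 (-0.45 ± 0.11, adjusted p = 0.0579) and Sall4 (-0.75 ± 0.20, adjusted p = 0.0747) lay just above the threshold. In neo1 MUT against control, with 2.76% of genes called, Dppa2 fell by 0.89 ± 0.15 (adjusted p = 0.023). In unc5B MUT against netrin-1 WT, with 2.03% called, Dppa2 rose by 0.90 ± 0.15 (adjusted p = 0.0263) and Sox2 fell by 0.78 ± 0.13 (adjusted p = 0.0235). No member passed in unc5B MUT against control (0.0188% of genes called), neo1 MUT against netrin-1 WT (0.909%) or neo1 MUT against unc5B MUT (2.32%). This selection of 2 libraries a group was made after the values were seen. For netrin-1 WT against control it left out the number 3 differences, 0.25 for Dppa2 and 0.43 for Sox2. Its adjusted p-values therefore add no support to the calls.

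Counts at processed copies also moved with the number. GENCODE M21 holds 6 processed pseudogenes that match the Dppa2 transcript at 90% identity or more over at least 200 bases, 2 that match Dppa4 and 1 that matches L1td1, and 5, 2 and 1 of these are in the count table. The closest are Gm9788 (chromosome 19, 41459813 to 41460718, plus strand), 99.3% identical to Dppa2 over 906 bases, and Gm14058 (chromosome 2, 122214620 to 122215354, minus strand), 99.4% identical to Dppa4 over 532 bases, whose aligned stretches are shown above. Of the counts at Dppa2 and its copies together, the copies took 0.33% to 1.35% in numbers 1 and 2 and 23.41% to 31.83% in number 3. For Dppa4 the shares were 0.84% to 1.42% and 13.74% to 16.3%, and for L1td1 0.02% to 0.14% and 0.55% to 0.72%. The ranges of number 3 did not overlap those of the other numbers for any of the 3 genes.

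**Figure D4:**
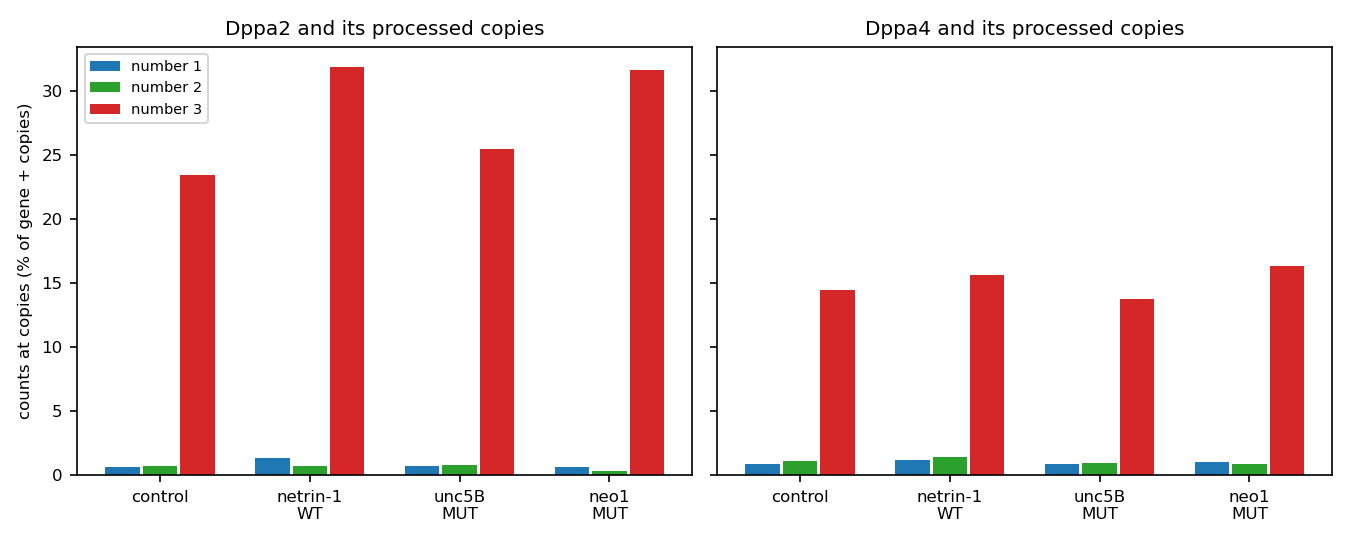
Bars give the percent of counts at the processed copies among the counts at gene plus copies, by group, for replicate numbers 1, 2 and 3 (linear axis from 0), with Dppa2 left and Dppa4 right. Number 3 bars reach 23.41% to 31.83% for Dppa2 and 13.74% to 16.3% for Dppa4, and no other bar exceeds 1.42%.

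With the copies added to their gene, the number 3 difference of Dppa2 went from -0.92 to -0.45 ± 0.18 (adjusted p = 0.0545) and lost its call, and that of Dppa4 went from 0.12 to 0.34 ± 0.10 (adjusted p = 0.011) and gained it. Between groups the sums changed little: Dppa2 in netrin-1 WT against control was -0.60 with the copies and -0.66 without. No source used here states how reads that fit both places were divided, and the levels of Dppa2 and Dppa4 in number 3 are uncertain.

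The wider network around the members held few calls in the paired fit. Of 29 other pluripotency genes, all tested, 2 rose and 1 fell in netrin-1 WT against control. In unc5B MUT 0 were called, and in neo1 MUT 1 fell. Over all genes, that fit called 3.5%, 0.0285% and 5.26% in the same order. Dppa3, a maternal factor that shields DNA methylation marks, rose from 1.34 to 5.19 CPM in netrin-1 WT (2.24 ± 0.36, adjusted p = 0.00784). The Nodal antagonist Lefty1 fell there from 41.4 ± 25.2 to 15.1 ± 10.9 CPM (SD, n = 3), and the libraries of the groups overlapped. Its paired log2 fold change was -1.42 ± 0.28 (adjusted p = 0.0218). The T-box factor Tbx3 fell from 136.9 to 66.1 CPM in neo1 MUT (-1.09 ± 0.23, adjusted p = 0.0238). In neo1 MUT against unc5B MUT 2 of the 29 fell, where the paired fit called 4.87% of all genes. They were Tbx3 and the secreted phosphoprotein Spp1, which fell from 213.2 to 133.2 CPM (-0.66 ± 0.14, adjusted p = 0.0239). The summed list stayed between 4333.8 and 6011.6 CPM in all 12 libraries. None of these calls was made by the fit without the block.

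Among 15 relatives of the POU, Sox and Sall factors, 1 rose and 1 fell in netrin-1 WT against control, where 3.5% of all genes were called. Sox21, another SoxB factor, rose from 2.05 ± 1.43 to 25.3 ± 22.2 CPM (SD, n = 3), with a paired edgeR log2 fold change of 3.41 ± 0.51 (adjusted p = 0.00578, and 0.361 without the block). Sox17, the endoderm factor that competes with Sox2 for Pou5f1, fell from 13.3 to 1.29 CPM in netrin-1 WT (-3.37 ± 0.32, adjusted p = 0.000534) and to 1.49 CPM in neo1 MUT (-3.09 ± 0.32, adjusted p = 0.000706), and both calls were also made without the block (adjusted p = 0.0375 and 0.0436). Sox17 is also on the primitive endoderm list, of which 16 of 18 genes fell in netrin-1 WT, 0 in unc5B MUT and 17 in neo1 MUT against control. Over all genes, the paired fit called 3.5%, 0.0285% and 5.26% in these comparisons. Without the block edgeR called 7, 0 and 4 of the 18 in the same order. The endocytic adaptor Dab2 fell from 102.6 CPM in control to 7.11 in netrin-1 WT and 11.8 in neo1 MUT. The part of the primitive endoderm genes in the levels of the 9 members was not tested.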

How the data were processed

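RNA of CGR8 cells was sequenced as 12 libraries, 3 per group, with groups and numbers as in the titles. Estimated counts were deposited by the authors for 52661 genes. Per the submitters' processing notes, DESeq2, R 3.3.2, Bowtie2, Bowtie, STAR 2.5.2b and FastQC 0.11.5 were used, with mm10, GRCm38.p5 and GRCh38 named and no roles stated. The counting program and its use of strand are not stated in them. The authors' deposited comparison table gives log2 fold changes and p-values per the file headers, without naming the model.

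Estimated counts were not whole, although the design had assumed whole counts, so they were rounded. They were tested with the edgeR 4.0.16 quasi-likelihood F-test in R 4.3.3, on all 12 libraries with group as the only term, TMM scaling and filterByExpr (21053 genes). In the paired fit the replicate number is added as a block. After subtracting group means, libraries sharing a number moved together (correlations 0.58 to 0.88 over 18 pairs, above a minimum of 0.1). Numbers 1 and 2 also did so with each other (0.49 to 0.76), and number 3 with another number gave -0.83 to -0.60. The correlations set number 3 apart. The range within a number overlapped that between numbers 1 and 2, so they cannot decide whether numbers 1 and 2 are separate pairs. That part of the pairing comes from the titles alone. With 3 libraries against 3, the smallest p of an exact permutation test is 0.1, and none was run. Log2 CPM used a prior count of 2. Of the 52661 identifiers, 52566 matched GENCODE M21, which gave coordinates and exon lengths. The tests were tried on simulated data.

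Alternatives were RLE and upper quartile scaling, other filters, DESeq2, limma-voom, only the groups compared, and each library left out. Fits without number 3, with copies summed and with a group by number term were added after the data were seen. The members and the gene lists were chosen with earlier results of these data known. Genes named beside the members were up to 4 per list that passed the paired test, with the largest change and at least 5 CPM in the higher group, the 3 genes most like Pou5f1 and Sox2, the tested neighbours of Sox2 and the closest copies. Setdb1 and Dnmt1 are named as list members only.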

Additional observations from a re-analysis of the deposited data

How the results depend on the processing

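Without the block, the count of 0 members called held under every other scaling, filter, tool and left-out library in all 6 comparisons between groups. With the replicate block, netrin-1 WT against control gave 1 call, Sox2, also with RLE scaling, upper quartile scaling, a filter of 1 CPM in 3 libraries, DESeq2 or the copies summed (1 each), and limma-voom gave 2. The block with left-out libraries gave 0 to 4 calls there, 0 to 3 in neo1 MUT against control, 0 to 2 in unc5B MUT against netrin-1 WT and 0 to 1 in neo1 MUT against netrin-1 WT, the most without control library 3 or netrin-1 WT library 3. In unc5B MUT against netrin-1 WT the block alone gave 0 calls, with upper quartile scaling or the 1 CPM filter 1, and with DESeq2 or limma-voom 2. DESeq2 with the block gave 1 call in each of neo1 MUT against control, against netrin-1 WT and against unc5B MUT, and limma-voom 1 in the first and last. Numbers 1 and 2 alone gave 2, 1 and 2 calls in netrin-1 WT against control, neo1 MUT against control and unc5B MUT against netrin-1 WT. That selection was made after the values were seen. Dppa2 in neo1 MUT against unc5B MUT had adjusted p-values with the block of 0.0101 (DESeq2), 0.0327 (limma-voom) and 0.0595 (edgeR). The cause of these differences was not tested. The 7 members called between numbers became 6 to 7 with a library left out, and the order by level per length was the same with the longest transcript. No called value changed sign. Of 1684 values under the alternatives, 208 changed sign without a call, 40 were newly called and 8 lost their call. With 3 libraries a group, members with wide spread such as L1td1 could pass only at large differences.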
